A study of Mus musculus with 16 samples.

Results

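Glycolysis and hypoxia-response genes were followed in RNA from brain CD11b+ cells as a set of 34 genes out of the 55385 in the count table. Earlier results of these data were known when this set and the other gene lists below were chosen. The genes of the set were taken by name and function. They are the glucose transporters, the enzymes of glycolysis and lactate handling, the regulators of phosphofructokinase and well-known targets of hypoxia-inducible factor (HIF). Of these, 33 had enough counts to be tested among 14513 genes, and Ddit4, a stress-induced inhibitor of mTOR signaling, did not (0.137 to 2.57 CPM, read counts scaled to the TMM-adjusted library total, in all libraries).

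The cells came from female mice of 4 genotypes at 20 wk of age, 4 libraries of each. WT mice carried neither the transgenes nor the Card9 deletion. Card9-/- mice had a germline deletion of Card9, an adaptor of myeloid receptors, and lacked the transgenes. 5xFAD mice carried the 5xFAD transgenes, which lead to amyloid-β deposits in the brain, and intact Card9, and Card9-/-5xFAD mice had the transgenes together with the deletion. These transgenes are driven by the Thy1 promoter, which is active in neurons. The cells were taken with anti-CD11b magnetic beads once meninges and choroid plexus were taken out, a sort that also takes other myeloid cells.

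Glycolysis splits glucose into pyruvate in the cytosol, and pyruvate is reduced to lactate by lactate dehydrogenase or carried into mitochondria. HIF is a transcription factor whose α subunit is hydroxylated by the prolyl hydroxylases (EGLN proteins) when oxygen is present and is then degraded. When the α subunit is stable, HIF binds short DNA elements with the core ACGTG or GCGTG and raises the transcription of most glycolytic enzymes and of its own hydroxylase Egln3. Microglia and other macrophages are known to shift toward glycolysis on activation, and HIF-1α accumulates in such cells also without hypoxia.

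Between 2970148 and 19333325 reads per library were counted on genes (median 7944265). The 10 microglia markers were present in every library and summed to 16252 to 33349 CPM. Counts of Card9 did not show the deletion: Card9 measured 31.6, 34.8, 33.2 and 16.7 CPM in the libraries labelled Card9-/- and 13.6, 51.3, 43.2 and 39.3 CPM in WT (log2 fold change -0.34, adjusted p = 0.97), while 5xFAD had 15.6, 32.6, 29.1 and 33.5 CPM and the Card9-/-5xFAD libraries had 26.6, 33.7, 9.73 and 10.8 CPM. Counts per gene do not show which exons the reads cover, so this is no check of the allele, and Card9-/- and Card9-/-5xFAD are used here for the libraries so labelled. One library of each genotype stood apart on the first principal component of the 500 most variable genes (60.4% of their variance): WT 1, Card9-/- 4, 5xFAD 1 and Card9-/-5xFAD 4, at -54.1 to -23.7 against -8.71 to 35.1 for the other 12. In these 4 libraries the microglia markers summed to 16252 to 19048 CPM, against 20744 to 33349 CPM in the other 12, and 10 neutrophil markers summed to 2107 to 6314 CPM against 495 to 2420 CPM. S100a8 and S100a9 made up the largest parts of the neutrophil sum in these 4. Ltf and Ngp instead were the lowest of their genotype in WT 1 (11.3 and 138 CPM), Card9-/- 4 (38.9 and 149 CPM) and 5xFAD 1 (5 and 141 CPM), but not in Card9-/-5xFAD 4. Retnlg was the highest of its genotype in WT 1, Card9-/- 4, 5xFAD 1 and Card9-/-5xFAD 4 (651, 751, 296 and 612 CPM), as were S100a8 and S100a9. Camp was the highest in Card9-/- 4 (267 CPM) and Card9-/-5xFAD 4 (614 CPM), but not in WT 1 or 5xFAD 1. The neutrophil markers thus did not all move together, and whether these libraries held more neutrophils was not tested. Results are therefore given with all 16 libraries and, for the members, also with the 12 others. The fit on 12 was not planned: the 4 were picked from these same counts, as the lowest of each genotype on this component. Leaving them out narrows the spread by choice, so p-values on 12 libraries may be too small and only describe those libraries.

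The transgenes went with higher RNA of several glycolytic enzymes, of a lactate exporter and of Egln3 and with lower RNA of Pfkp. Averaged over both Card9 genotypes, 10 of the 33 tested members rose and 1 fell at an adjusted p under 0.1 in edgeR's quasi-likelihood test, where 11.3% of all tested genes were called, 5.62% higher and 5.73% lower. An unadjusted p under 0.05 was found for 16 members, against 22.8% of all genes. Those that rose were Gpi1, Aldoa, Tpi1, Gapdh, Pgk1, Pkm, Ldha, Slc16a3, Egln3 and Ankrd37, and the one that fell was Pfkp. The median log2 fold change was 0.45 over the members and -0.15 over all tested genes, of which 38.3% were higher at any p, against 23 of the 33 members. The members just inside the threshold were Slc16a3 (adjusted p = 0.0949) and Ldha (adjusted p = 0.0535), and those just outside were Bnip3 at 1.06 (adjusted p = 0.104) and Pfkfb2 at -0.73 (adjusted p = 0.105).

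Within each Card9 genotype alone, with 4 libraries against 4, fewer members passed. In 5xFAD against WT, Aldoa, Tpi1 and Egln3 rose and Pfkp fell, 4 of 33 where 2.09% of all tested genes were called (1.57% higher and 0.524% lower). An unadjusted p under 0.05 was found for 13 members, where 10.8% of all genes had one. In Card9-/-5xFAD against Card9-/-, Egln3 rose and Pfkp fell, 2 of 33 where 1.97% of all were called (1.49% higher and 0.482% lower). An unadjusted p under 0.05 was found for 10 members, against 12.2% of all genes. These comparisons share no library, and 30 of the 33 members had the same sign in both, where 81.4% of all tested genes did. The 3 with opposite signs were Eno2, Pdk1 and Adm, none of which was called in either. The median over the members was 0.57 in 5xFAD against WT and 0.56 in Card9-/-5xFAD against Card9-/-, where the medians of all tested genes were -0.15 in each.

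Without the 4 libraries that stand apart, 13 members were called in 5xFAD against WT, 12 higher and 1 lower, where 7.97% of all genes were called. In Card9-/-5xFAD against Card9-/- there were 17, 15 higher and 2 lower, against 16.7% of all genes, and averaged over both genotypes there were 21, 18 higher and 3 lower, against 34.5% of all genes. On 12 libraries the averaged calls added Slc2a1, Pfkfb3, Pgam1, Eno1, Slc16a1, Bnip3, Egln1 and Ero1l to those that rose, and Pfkfb2 and Pfkfb4 to those that fell. The 4 libraries had lower counts of most glycolytic enzymes than the others of their genotype, as the heat map of all members by library shows. The members' mean log2 CPM was 4.55 in WT 1 against 5.45 to 5.68 in the other WT libraries, and 5.16 in Card9-/-5xFAD 4 against 5.80 to 6.18 in the others of its genotype.

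**Figure D1:**
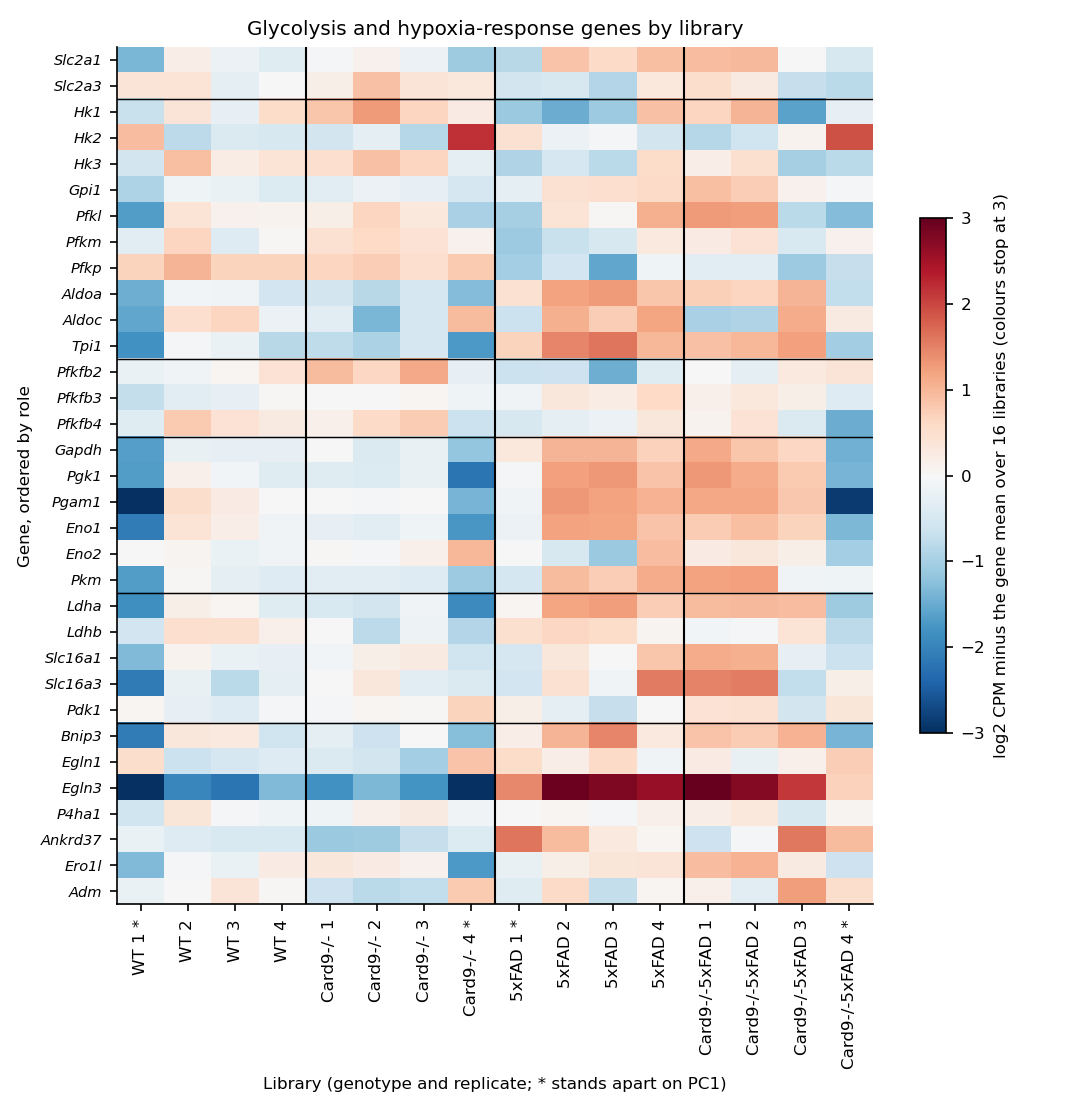
Each row is 1 of the 33 tested members, ordered by role, and each column 1 of the 16 libraries, with an asterisk on the 4 that stand apart. Colour gives log2 CPM minus the gene's mean over all libraries (colours stop at 3 in both directions). The rows of Gapdh, Pgk1, Pgam1 and Eno1 are pale or blue in WT and Card9-/- and red in the unmarked transgenic libraries. The Pkm row is alike except in Card9-/-5xFAD 3, and the Eno2 row does not follow this. Hk2 is reddest in the marked libraries Card9-/- 4 and Card9-/-5xFAD 4.

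Marker levels of other cells in the sort also differed with the transgenes. The 10 markers of border-associated macrophages summed to 1309 to 2194 CPM in the 8 libraries without transgenes and to 644 to 2013 CPM in the 8 with them, and the 10 monocyte markers to 362 to 568 CPM and 146 to 381 CPM. Early response genes, which cell dissociation is known to induce, summed to 8214 to 13571 CPM without and 4189 to 15182 CPM with them. No marker of these lists was at 0 in all libraries, and their part in the members' changes was not tested. In bulk RNA, fewer cells of a type and less RNA per cell cannot be told apart.

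Among the glucose transporters, Slc2a1 encodes GLUT1, the widespread carrier, and Slc2a3 encodes GLUT3, the carrier of high affinity that is best known in neurons. Neither was called with 16 libraries. Slc2a1 averaged 41 ± 13.6 CPM (SD, n = 8) without the transgenes and 70.4 ± 28.6 CPM (SD, n = 8) with them, a log2 fold change of 0.78 (adjusted p = 0.141), and it rose by 0.84 (adjusted p = 0.00691) on 12 libraries. Slc2a3 went the other way in its estimate, -0.50 (adjusted p = 0.251), and was not called on 12 libraries either. Per kilobase of exon, Slc2a1 made up 73.6 to 91.1% of the summed level of both genes in the WT libraries and 88.8 to 96.4% in 5xFAD.

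The 3 hexokinases phosphorylate glucose as it enters the cell. None of them was called. Hk2, the HIF-responsive isoform bound to mitochondria, lay at 505, 155, 198 and 192 CPM in WT, at 183, 220.2, 146 and 1211 CPM in Card9-/-, at 368, 236, 260.3 and 182 CPM in 5xFAD and at 149, 177, 289 and 1010.4 CPM in Card9-/-5xFAD, each listed from replicate 1 to 4. The highest library of every genotype was the one that stands apart, and the other 12 libraries ranged from 146 to 289 CPM. The averaged log2 fold change was -0.06 (adjusted p = 0.956) with 16 libraries and 0.27 (adjusted p = 0.308) with 12. Hk1, the constitutive isoform, had -0.50 (adjusted p = 0.481) and Hk3, the isoform of myeloid cells, -0.63 (adjusted p = 0.219), and on 12 libraries Hk3 stayed at -0.64 (adjusted p = 0.1).

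Glucose-6-phosphate isomerase, encoded by Gpi1, makes fructose 6-phosphate. Gpi1 lay at 86.6, 150.5, 145 and 123 CPM in WT and at 131, 146, 139 and 116 CPM in Card9-/-. With the transgenes it lay at 136, 226, 235 and 248 CPM in 5xFAD and 309, 276, 180.0 and 161 CPM in Card9-/-5xFAD. The lowest transgenic library, 5xFAD 1, fell within the range of those without transgenes, and each of the other 7 was above all 8. Gpi1 rose by 0.77 (SE 0.20, adjusted p = 0.033) averaged over Card9 genotype, and by 0.85 (adjusted p = 0.00197) on 12 libraries, while the averaged call was lost without the filter on low counts (adjusted p = 0.139). Exons of the gene Gm26762 cover 11.5% of the exon bases of Gpi1.

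Phosphofructokinase catalyzes the committed step and is built of liver (Pfkl), muscle (Pfkm) and platelet (Pfkp) subunits. Pfkp was the member that fell. Pfkp measured 11.6, 14.9, 11.7 and 11.7 CPM in WT and 11.5, 12.4, 10.4 and 12.8 CPM in Card9-/-. In the transgenic mice it measured 3.49, 4.8, 2.34 and 6.67 CPM in 5xFAD and 5.82, 5.82, 3.3 and 4.41 CPM in Card9-/-5xFAD. In Card9-/-5xFAD against Card9-/- alone, 3.48% of tested genes separated downward without overlap. All 8 transgenic libraries were below all 8 others, a separation in this direction found in 0.469% of tested genes. Pfkp fell, with -1.52 (SE 0.32, adjusted p = 0.0202) in 5xFAD against WT, -1.27 (SE 0.32, adjusted p = 0.0709) in Card9-/-5xFAD against Card9-/- and -1.39 (SE 0.22, adjusted p = 0.00114) averaged. It was -1.29 (adjusted p = 0.00261) on 12 libraries. Without the filter on low counts the calls within each Card9 genotype were lost (adjusted p = 0.137 and 0.27) and the averaged one was kept (adjusted p = 0.00658). In Card9-/-5xFAD against Card9-/- the call was lost in 9 of 16 fits that each left out 1 library, namely WT 3, 5xFAD 2, Card9-/- 1 to 3 and each Card9-/-5xFAD library, with log2 fold changes between -1.37 and -1.12 and adjusted p up to 0.221. The values rest on 11 to 59 counts per transgenic library. Pfkl was the most abundant subunit: per kilobase of exon, Pfkl had 54.7 ± 34.9 (SD, n = 16), Pfkm 4.29 ± 2.33 and Pfkp 1.69 ± 1.09. The order of Pfkm and Pfkp depends on the annotated exon lengths used, 3340 and 13401 bases. In CPM, Pfkm averaged 6.09 and Pfkp 12.1 without the transgenes, and 4.70 and 4.58 with them. Per kilobase of exon, Pfkp made up 4.13 to 11.7% of the summed level of the 3 subunits in WT and 0.926 to 2.73% in 5xFAD, 3.06 to 8.40% in Card9-/- and 0.984 to 3.64% in Card9-/-5xFAD. Pfkl had an averaged log2 fold change of 0.37 (adjusted p = 0.638) and Pfkm of -0.39 (adjusted p = 0.387).

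Aldolase splits fructose 1,6-bisphosphate, and triosephosphate isomerase (Tpi1) interconverts its products. Aldoa lay at 238, 621, 608 and 443 CPM in WT and at 448, 365, 461 and 267 CPM in Card9-/-. The transgenic levels were 901, 1509, 1596 and 1163 CPM in 5xFAD and 1071, 1019, 1324 and 389.7 CPM in Card9-/-5xFAD. All 5xFAD libraries were above all WT libraries, as in 4.35% of tested genes, while Card9-/-5xFAD 4 lay inside the Card9-/- range. Aldoa rose by 1.44 (SE 0.39, adjusted p = 0.0967) in 5xFAD against WT and by 1.37 (SE 0.28, adjusted p = 0.00651) averaged, with 1.30 (adjusted p = 0.14) in Card9-/-5xFAD against Card9-/-. Aldoc, the brain isoform that astrocytes express, had 0.45 (adjusted p = 0.561) and averaged 14.4 ± 8.44 CPM without and 20 ± 11.1 CPM with the transgenes (SD, n = 8 each). Gfap, 1 of 10 listed astrocyte markers, measured 0.221 to 3.36 CPM without and 3.60 to 19.1 CPM with the transgenes. The 10 together did not rise in this way, with sums of 184 to 455 CPM without and 167 to 366 CPM with the transgenes. Slc1a3 made up most of these sums, at 165 to 311 CPM without and 139 to 245 CPM with them.

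Tpi1 stood at 75.4, 259, 232 and 148 CPM in WT and at 157, 137, 186 and 80.5 CPM in Card9-/-. With the transgenes it stood at 421, 732, 810.1 and 524 CPM in 5xFAD and 485, 529, 625 and 127 CPM in Card9-/-5xFAD. Only Card9-/-5xFAD 4 among the transgenic libraries was inside the range of the 8 without transgenes. Tpi1 rose by 1.80 (SE 0.47, adjusted p = 0.0831) in 5xFAD against WT and by 1.73 (SE 0.33, adjusted p = 0.00501) averaged, the largest rise among the glycolytic enzymes, and had 1.66 (adjusted p = 0.12) in Card9-/-5xFAD against Card9-/-. In 5xFAD against WT the calls of Aldoa and Tpi1 were each lost in 14 of 16 fits that left out 1 library, at log2 fold changes of 1.21 to 1.65 and 1.54 to 2.03 (adjusted p up to 0.313 and 0.296), and were kept without Card9-/- 4 or Card9-/-5xFAD 4. Without the filter on low counts both were lost (adjusted p = 0.306 and 0.157). On 12 libraries the averaged values were 1.42 (adjusted p = 6.99e-05) for Aldoa and 1.76 (adjusted p = 3.88e-05) for Tpi1.

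**Figure D2:**
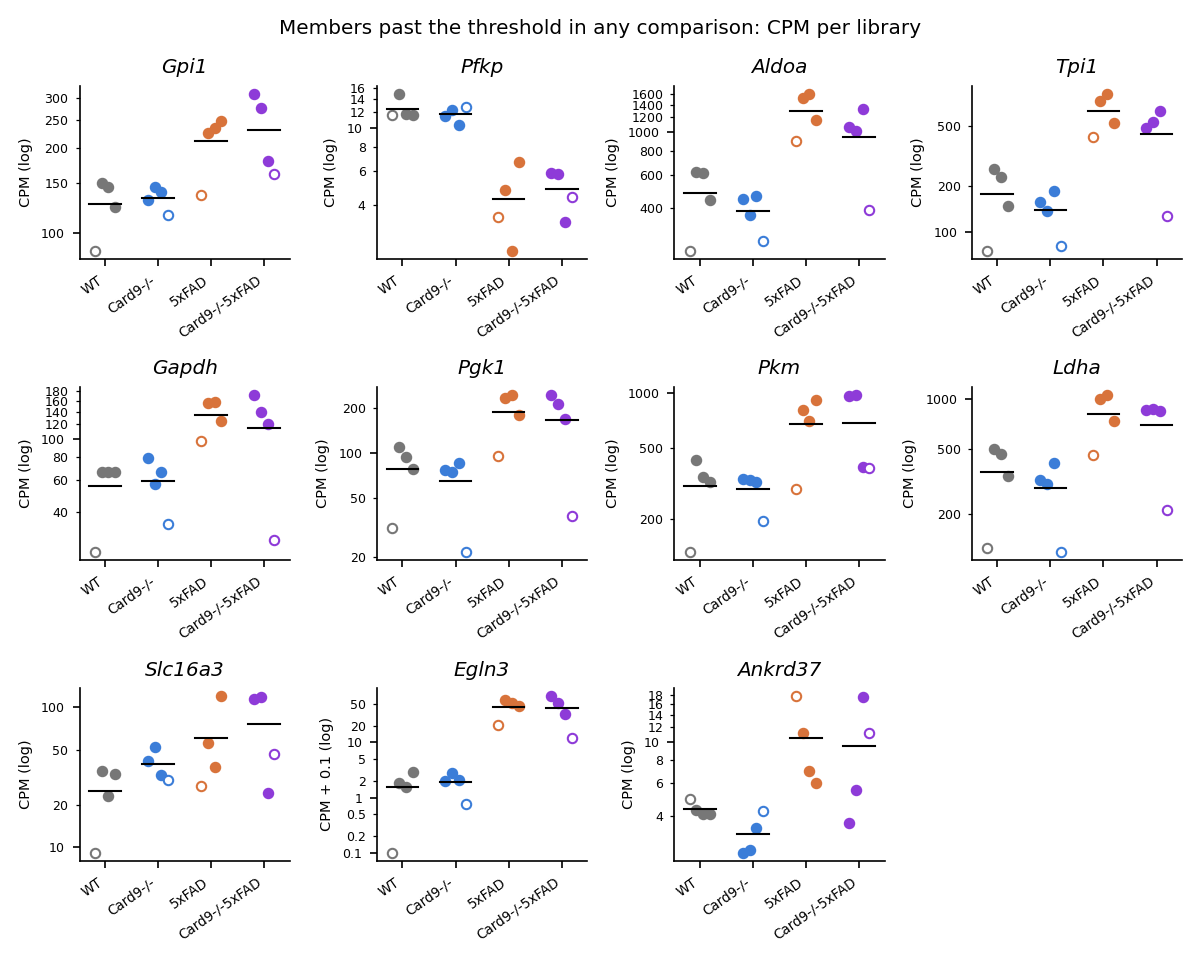
Each panel shows 1 of the 11 called members, with CPM per library on a log axis (CPM + 0.1 for Egln3), points by genotype, open points for the 4 libraries that stand apart and a line at each group's mean. Egln3 and Pfkp separate the 8 transgenic libraries from the 8 others, and in the other 9 panels the ranges meet, mostly through an open point.

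The bifunctional enzymes Pfkfb2, Pfkfb3 and Pfkfb4 set the level of fructose 2,6-bisphosphate, the main activator of phosphofructokinase. None was called with 16 libraries. Pfkfb2 measured 3.35, 3.59, 4.08 and 5.35 CPM in WT and 2.43, 2.47, 1.26 and 3.0 CPM in 5xFAD, where 5xFAD lay below WT without overlap, as in 3.69% of tested genes, whereas the ranges of Card9-/- (7.81, 6.16, 8.83 and 3.27 CPM) and Card9-/-5xFAD (3.95, 3.19, 4.87 and 5.21 CPM) overlapped. On 12 libraries, Pfkfb2 fell by 0.90 (adjusted p = 0.0172) and Pfkfb4 by 0.45 (adjusted p = 0.0959) averaged over Card9 genotype, while Pfkfb3, the HIF-inducible isoform, rose by 0.41 (adjusted p = 0.0328). Pfkfb3 was the most abundant of the 3 per kilobase of exon (85.5 ± 27.8, SD, n = 16), ahead of Pfkfb4 (42.3 ± 24.4) and Pfkfb2 (1.6 ± 1.09).

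The lower steps of the pathway yield ATP, from glyceraldehyde-3-phosphate dehydrogenase (Gapdh) through phosphoglycerate kinase (Pgk1), phosphoglycerate mutase (Pgam1), enolase (Eno1, with the neuronal isoform Eno2) to pyruvate kinase (Pkm). Of the 6 members here, 3 rose in the averaged comparison, where 5.62% of all tested genes were called higher. All but Eno2 had positive estimates, as did 38.3% of all tested genes. The median was 1.05 over these members and -0.15 over all tested genes. Gapdh lay at 24.5, 66.2, 65.7 and 65.8 CPM in WT and at 78.4, 57.2, 66.3 and 34.7 CPM in Card9-/-. With the transgenes it reached 96.6, 157, 157 and 125 CPM in 5xFAD and 172, 139, 119 and 28.4 CPM in Card9-/-5xFAD. All 5xFAD libraries exceeded all WT libraries, as in 4.35% of tested genes, while Card9-/-5xFAD 4 was below every Card9-/- library. Gapdh rose by 1.11 (SE 0.32, adjusted p = 0.048) averaged, and leaving out 5xFAD 2, 5xFAD 3 or Card9-/-5xFAD 1 ended the call (adjusted p up to 0.103).

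Pgk1 measured 31, 110.0, 93.3 and 77.6 CPM in WT and 76.6, 74.3, 85 and 21.6 CPM in Card9-/-. With the transgenes, Pgk1 measured 95.4, 233, 245 and 180.1 CPM in 5xFAD and 244, 214, 169.8 and 37.6 CPM in Card9-/-5xFAD. It rose by 1.32 (SE 0.38, adjusted p = 0.0517), and the call was lost without WT 4, 5xFAD 2, 5xFAD 3 or Card9-/-5xFAD 1 (adjusted p up to 0.111). For Pkm, the counts gave 132, 428, 342 and 322 CPM in WT and 333, 329.7, 321 and 196 CPM in Card9-/-. The transgenic libraries had 294, 807, 704 and 913 CPM in 5xFAD and 970.3, 981, 388 and 386 CPM in Card9-/-5xFAD. Every Card9-/-5xFAD library was above every Card9-/- library, as in 3.53% of tested genes, while the lowest 5xFAD library, 5xFAD 1, was below 3 of the 4 WT libraries. Pkm rose by 1.18 (SE 0.31, adjusted p = 0.0338), and the count does not separate its M1 and M2 splice forms. Exons of the gene Gm49759 on the same strand cover 15.3% of the exon bases of Pkm.

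Pgam1 and Eno1 were not called with 16 libraries, at 0.99 (adjusted p = 0.249) and 0.98 (adjusted p = 0.141), and both rose without the libraries that stand apart, by 1.02 (adjusted p = 0.000346) and 0.99 (adjusted p = 0.000469). Pgam1 was far lower in these libraries: 8.8 CPM in WT 1 against 76.0 to 108 CPM in the other WT libraries, and 10 CPM in Card9-/-5xFAD 4, where the others of its genotype had 132 to 167 CPM. Eno2 was near the limit of detection, at 1 to 24 counts per library.

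Several of these genes share sequence with other annotated genes, so the reads of each are uncertain. Of the distinct 50-base stretches in annotated transcripts of Gapdh, 24.7% were also found in 213 similar genes. Of all reads counted on Gapdh and the 107 such copies in the table, 48.9% lay on the copies. Summed with its copies Gapdh rose by 1.06 averaged (adjusted p = 0.0309). Copies shared 53.9% of Pgk1, 36.2% of Pgam1, 25.9% of Eno1 and 14.2% of Pkm stretches and held 0.583%, 1.04%, 3.87% and 1.13% of the reads. Summed with them, Pgk1 rose by 1.32 (adjusted p = 0.0517).

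Lactate dehydrogenase is built of an A subunit (Ldha), which favors lactate formation and is a HIF target, and a B subunit (Ldhb), which favors pyruvate. Ldha measured 125, 501, 465 and 344 CPM in WT and 321, 304, 412 and 119 CPM in Card9-/-. Transgenic libraries had Ldha at 460.1, 1002, 1058 and 735 CPM in 5xFAD and 852, 866, 839.9 and 213 CPM in Card9-/-5xFAD. In each genotype the library that stands apart was the lowest, and in 5xFAD 1 and Card9-/-5xFAD 4 Ldha was inside the range of the libraries without transgenes. Ldha rose by 1.22 (SE 0.36, adjusted p = 0.0535), and the call was lost without WT 4, Card9-/- 2, 5xFAD 2, 5xFAD 3 or Card9-/-5xFAD 3 (adjusted p up to 0.116). Ldhb had 0.29 (adjusted p = 0.48). Per kilobase of exon, Ldhb remained the more abundant subunit in every group, and Ldha made up 12.7% ± 2.91 of the sum of both in WT, 15.6% ± 4.87 in Card9-/-, 22.6% ± 5.72 in 5xFAD and 25.1% ± 7.27 in Card9-/-5xFAD (SD, n = 4 each).

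Lactate leaves the cell through the monocarboxylate transporters MCT4 (Slc16a3), a HIF target, and MCT1 (Slc16a1). Slc16a3 lay at 9.16, 35.1, 23.4 and 33.7 CPM in WT and at 41.2, 52.2, 33 and 30.4 CPM in Card9-/-. Transgenic libraries gave 27.6, 56.1, 37.8 and 121 CPM in 5xFAD and 115, 119, 24.5 and 46.5 CPM in Card9-/-5xFAD. The 4 highest libraries were 5xFAD 4, Card9-/-5xFAD 1 and 2 and 5xFAD 2, and the other 4 transgenic libraries were inside the range of those without transgenes. Slc16a3 rose by 1.11 (SE 0.38, adjusted p = 0.0949), a call that was lost in 12 of 16 fits that left out 1 library. It was kept without Card9-/- 4, 5xFAD 1, Card9-/-5xFAD 3 or 4. Over all 16 of these fits the adjusted p ran from 0.0652 to 0.173. The call was also lost without the filter on low counts (adjusted p = 0.126). Slc16a1 had 0.57 (adjusted p = 0.276), and Pdk1, the kinase that blocks entry of pyruvate into the citric acid cycle, -0.0025 (adjusted p = 0.996) with 16 libraries and 0.07 (adjusted p = 0.796) with 12.

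Egln3, the HIF prolyl hydroxylase PHD3, had the largest change of all members. It measured 0, 1.71, 1.43 and 2.78 CPM in WT and 1.92, 2.73, 1.96 and 0.654 CPM in Card9-/-. In the transgenic mice it measured 20.2, 57.8, 52 and 45.8 CPM in 5xFAD and 69.1, 50.7, 32.3 and 12 CPM in Card9-/-5xFAD. Every transgenic library was above every other library, a separation in this direction found in 1.19% of tested genes, and the lowest transgenic value was in Card9-/-5xFAD 4. The counts behind these values were 0 to 66 per library without and 30 to 700 with the transgenes. Egln3 rose by 4.82 (SE 0.71, adjusted p = 0.00136) in 5xFAD against WT, by 4.40 (SE 0.70, adjusted p = 0.00251) in Card9-/-5xFAD against Card9-/- and by 4.61 (SE 0.50, adjusted p = 2.12e-05) averaged, with 4.64 (adjusted p = 9.44e-08) on 12 libraries. The call was kept in all 16 fits that left out 1 library, with averaged log2 fold changes of 4.43 to 4.84. Egln1, the main oxygen-sensing hydroxylase PHD2, had 0.45 (adjusted p = 0.355). Per kilobase of exon, Egln3 went from 1.66 ± 1.35 in WT and 2.31 ± 1.57 in Card9-/- to 34.9 ± 14.2 in 5xFAD and 36.8 ± 25.4 in Card9-/-5xFAD (SD, n = 4 each), while Egln1 was at 11.1 ± 3.02, 11.6 ± 3.4, 12.2 ± 1.63 and 11.9 ± 1.52. Egln1 was thus the higher of the pair in all 8 libraries without transgenes, with at least 75.6% of their summed level. Egln3 was the higher in all transgenic libraries but Card9-/-5xFAD 4, where it had 36.7% of the sum. In the other transgenic libraries Egln3 had 52.3 to 82.8%. The plot of per-length levels shows both genes.

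**Figure D3:**
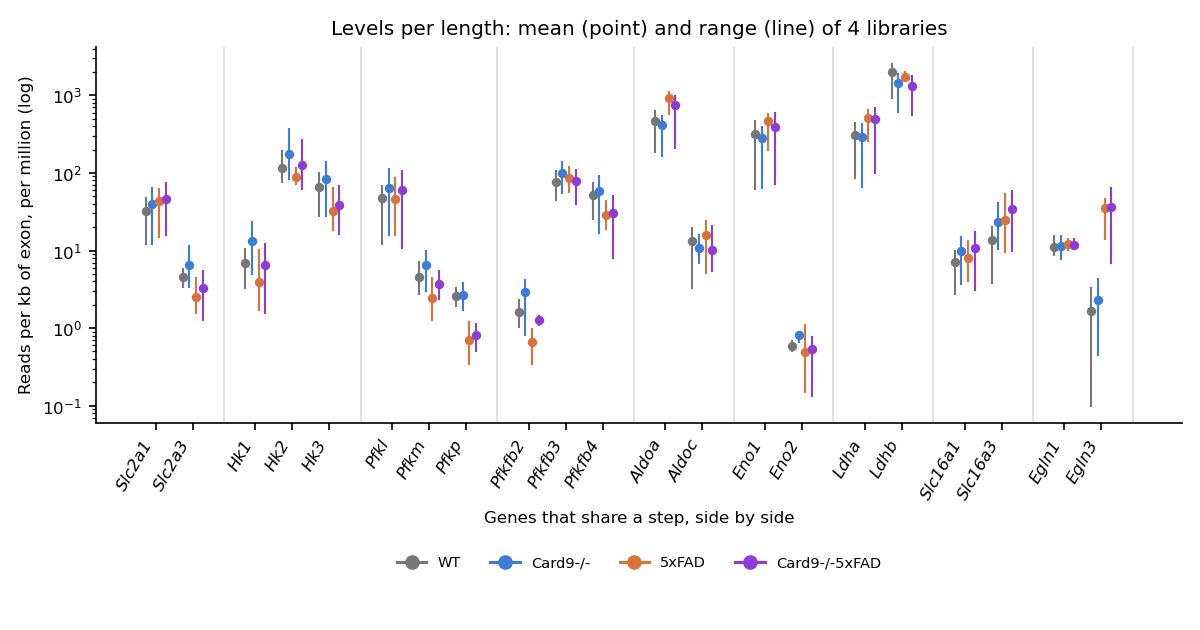
Reads per kilobase of exon, scaled to the same total in every library, on a log axis, for members that share an enzyme step or transport role. Points are group means (n = 4), lines span the lowest to the highest library (cut at 0.1, since Egln3 had 0 counts in WT 1), and colours give the genotype; Egln3 is higher and Pfkp lower in both transgenic groups, with ranges that do not meet those of the other groups.

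Ankrd37, a HIF target of little-known function, had low counts. Ankrd37 lay at 4.93, 4.28, 4.08 and 4.07 CPM in WT and at 2.52, 2.61, 3.44 and 4.25 CPM in Card9-/-. In the transgenic mice it lay at 17.7, 11.2, 7.02 and 5.99 CPM in 5xFAD and 3.65, 5.48, 17.6 and 11.2 CPM in Card9-/-5xFAD. All 5xFAD libraries were above all WT libraries, as in 4.35% of tested genes, and the lowest Card9-/-5xFAD library was inside the Card9-/- range. Ankrd37 rose by 1.42 (SE 0.33, adjusted p = 0.0156). Exons of Ufsp2 and Lrp2bp on the other strand cover 26.4% of its exon bases, and without a stated strand setting their reads cannot be told apart from its own. The highest value within 5xFAD was in the library that stands apart, as for Hk2.

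The remaining HIF targets were not called with 16 libraries. Bnip3, a receptor of mitophagy, had 1.06 (adjusted p = 0.104) and rose on 12 libraries by 1.09 (adjusted p = 0.00538). The collagen hydroxylase P4ha1 was at 0.06 (adjusted p = 0.884), the oxidase of protein folding Ero1l at 0.50 (adjusted p = 0.357) and the vasodilator peptide Adm at 0.44 (adjusted p = 0.529). P4ha1 lay between 173 and 336 CPM in every library, with the transgenic range inside that of the others, and Adm had only 3 to 16 counts per library.

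**Figure D4:**
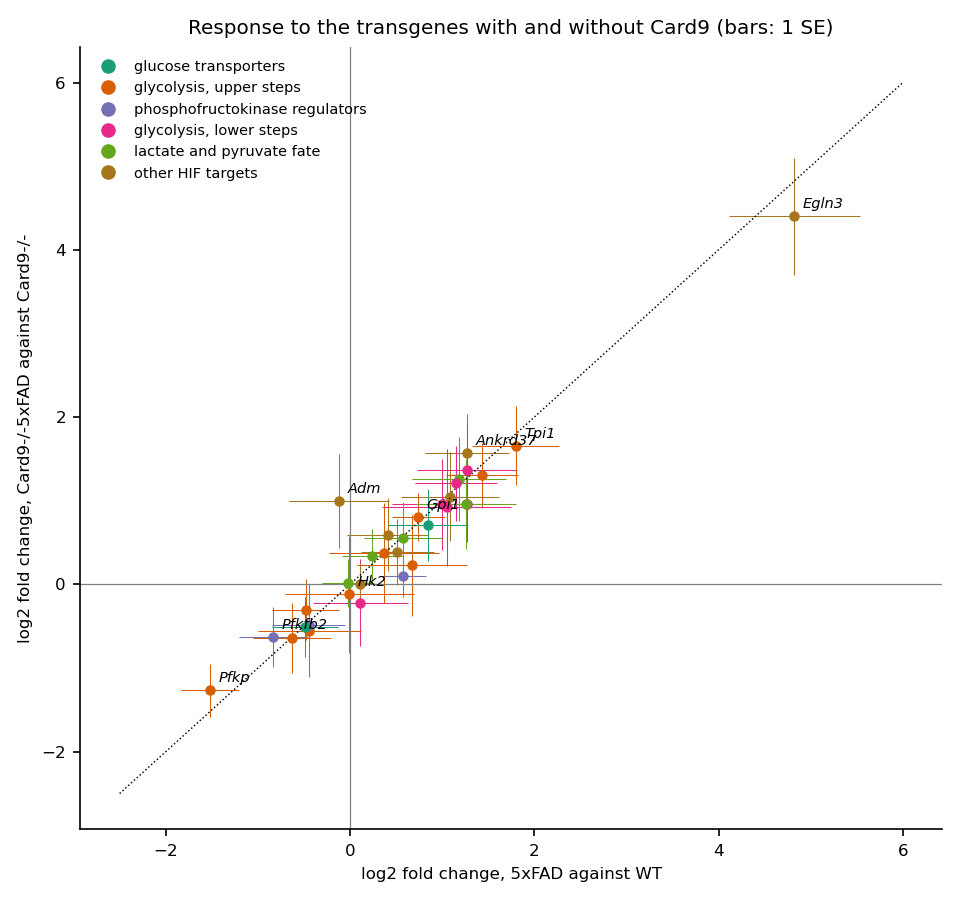
Log2 fold change of each of the 33 tested members in 5xFAD against WT (x axis) and in Card9-/-5xFAD against Card9-/- (y axis), with bars of 1 SE, colours by role and a dotted line of equal change. Egln3 lies far up at 4.82 and 4.40, Pfkp is the lowest on both axes at -1.52 and -1.27, and 30 members have the same sign on both.

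Promoter windows of some of the called members are shown, so that matches to the HIF core, or their absence, can be read. The sequences are RefSeq windows on the GRCm38.p6 assembly, 250 bases before the annotated start, read 5′ to 3′ on the gene's strand, and capitals mark ACGTG or GCGTG on either strand (CACGT and CACGC are their reverse complements, and CACGTG, which is also the core of an E-box, counts once on each strand). Egln3, Ldha, Pgk1 and Ankrd37 rose and hold matches, Tpi1 rose and holds none, and Pfkp fell. Gpi1, which is not shown, also rose and holds none. A second Ldha window, not shown, has 0 ACGTG and 1 GCGTG. Aldoa and Pkm, also not shown, rose and have windows with a match and windows without.
Egln3, chr12:54203875-54204124, minus strand: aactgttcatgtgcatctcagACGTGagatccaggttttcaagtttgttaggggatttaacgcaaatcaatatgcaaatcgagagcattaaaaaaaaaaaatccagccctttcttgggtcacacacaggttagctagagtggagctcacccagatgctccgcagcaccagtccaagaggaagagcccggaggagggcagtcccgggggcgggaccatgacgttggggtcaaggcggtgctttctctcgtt
Ldha, chr7:46845554-46845803, plus strand: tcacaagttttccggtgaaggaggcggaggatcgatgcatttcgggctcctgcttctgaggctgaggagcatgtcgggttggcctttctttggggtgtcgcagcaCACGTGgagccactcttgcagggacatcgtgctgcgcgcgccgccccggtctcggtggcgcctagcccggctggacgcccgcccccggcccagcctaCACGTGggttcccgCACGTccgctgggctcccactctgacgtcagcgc
Pgk1, chrX:106186850-106187099, plus strand: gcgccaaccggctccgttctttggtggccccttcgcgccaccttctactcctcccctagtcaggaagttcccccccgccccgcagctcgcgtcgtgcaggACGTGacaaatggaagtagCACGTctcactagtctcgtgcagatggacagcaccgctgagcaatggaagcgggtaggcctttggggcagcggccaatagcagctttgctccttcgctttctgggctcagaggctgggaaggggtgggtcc
Ankrd37, chr8:45999851-46000100, minus strand: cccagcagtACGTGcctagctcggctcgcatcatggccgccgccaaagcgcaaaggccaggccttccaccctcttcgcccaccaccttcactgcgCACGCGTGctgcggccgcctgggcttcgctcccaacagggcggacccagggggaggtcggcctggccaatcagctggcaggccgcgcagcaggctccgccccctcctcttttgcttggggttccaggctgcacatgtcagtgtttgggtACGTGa
Tpi1, chr6:124814159-124814408, minus strand: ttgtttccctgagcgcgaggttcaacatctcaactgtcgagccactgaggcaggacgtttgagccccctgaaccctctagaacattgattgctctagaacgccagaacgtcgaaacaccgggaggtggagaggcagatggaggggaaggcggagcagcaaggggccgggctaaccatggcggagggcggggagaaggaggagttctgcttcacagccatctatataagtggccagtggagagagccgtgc
Pfkp, chr13:6648772-6649021, minus strand: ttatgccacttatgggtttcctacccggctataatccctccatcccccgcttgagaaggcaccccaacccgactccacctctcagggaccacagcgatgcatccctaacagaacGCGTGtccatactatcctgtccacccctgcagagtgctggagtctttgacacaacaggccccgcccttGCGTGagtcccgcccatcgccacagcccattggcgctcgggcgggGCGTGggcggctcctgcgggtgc
The Egln3 window has 1 ACGTG, the first Ldha window 5, the Pgk1 window 2 and the Ankrd37 window 2 with 2 GCGTG that overlap each other. The Pfkp window has 3 GCGTG, so the member that fell holds the core as well.

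Of the 34 members, 33 were matched in the promoter table, Slc2a3 being the exception. In windows from 250 bases before to 50 after a start, 23 of 33 (69.7%) held ACGTG, against 29.3% of 9711 tested genes in the table and 21.8% of all 27025 genes, and 23 of 33 held GCGTG, against 54.6% and 35.2%. Of the 11 called members, 8 held ACGTG and 4 held GCGTG. The members include genes chosen as known HIF targets, so the shares describe the choice as much as the genes. Matches are letters in a window, with no measurement of binding here.

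Among other genes of the same pathways, Hif1a, Arnt2 and 4 further HIF pathway genes rose with the transgenes, while the other HIF subunits and most glycolytic neighbors did not pass. Of 30 tested genes of a list of 38 other HIF pathway genes, 6 rose and none fell in the averaged comparison, where 11.3% of all tested genes were called, with a median of -0.06 over the list. Hif1a, the oxygen-regulated α subunit, measured 57.2, 74.1, 55.4 and 79.9 CPM in WT, 73.4, 99.7, 97.1 and 135 CPM in Card9-/-, 229, 191, 184 and 269.8 CPM in 5xFAD and 329.6, 353, 158 and 199 CPM in Card9-/-5xFAD. Its 8 transgenic libraries were all above the 8 others, as in 1.19% of tested genes. Hif1a rose by 1.71 (SE 0.31, adjusted p = 0.00641) in 5xFAD against WT, 1.36 (SE 0.30, adjusted p = 0.0375) in Card9-/-5xFAD against Card9-/- and 1.54 (SE 0.21, adjusted p = 0.000323) averaged. Its call in Card9-/-5xFAD against Card9-/- was lost without Card9-/- 1, 2 or 3 or Card9-/-5xFAD 1 or 2 (adjusted p up to 0.152) and without the filter on low counts (adjusted p = 0.118). The related α subunit Epas1 had -0.84 (adjusted p = 0.475) and the common β subunit Arnt -0.45 (adjusted p = 0.398). These are mRNA levels, and the amount of HIF protein was not measured.

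Arnt2, a partner of HIF α subunits best known in neurons, measured 0 to 1.03 CPM without and 4.52 to 14.2 CPM with the transgenes, and rose by 3.78 (SE 0.39, adjusted p = 1.36e-05). Lox, the collagen cross-linker lysyl oxidase, measured 0 to 0.528 CPM without and 3.82 to 30.3 CPM with them and rose by 6.12 (SE 0.63, adjusted p = 1.23e-05). Both were also called within each Card9 genotype, with 3.64 and 3.92 for Arnt2 and 5.77 and 6.46 for Lox. Fam162a, a HIF-responsive mitochondrial protein, rose by 1.26 (SE 0.27, adjusted p = 0.00926) and Rora, a nuclear receptor, by 0.66 (SE 0.19, adjusted p = 0.0455). The call of Rora was lost without WT 4, 5xFAD 3 or Card9-/-5xFAD 1 (adjusted p up to 0.115) and without the filter on low counts (adjusted p = 0.197). The remaining gene that rose was Vegfa, the vascular growth factor, named after its values were seen.

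Of 27 tested genes of a list of 41 other glycolysis and pyruvate genes, 4 rose and 2 fell, where 11.3% of all tested genes were called, with a median of -0.15 as over all genes. Tigar, a phosphatase that lowers fructose 2,6-bisphosphate, rose by 1.38 (SE 0.31, adjusted p = 0.03) in 5xFAD against WT and 1.31 (SE 0.22, adjusted p = 0.00135) averaged. Tigar was higher in all 8 transgenic libraries (6.01 to 12.6 CPM) than in the 8 others (2.29 to 4.30 CPM), as were 1.19% of tested genes. Its call in 5xFAD against WT was lost without WT 2, WT 4 or 5xFAD 1 (adjusted p up to 0.133) and without the filter on low counts (adjusted p = 0.181). Mpc1, a subunit of the mitochondrial pyruvate carrier, rose by 0.80 (SE 0.18, adjusted p = 0.0166) and Slc2a6, a lysosomal glucose transporter of myeloid cells, by 1.32 (SE 0.36, adjusted p = 0.0383). Gpd1, the cytosolic glycerol-3-phosphate dehydrogenase, fell, at -1.06 (SE 0.33, adjusted p = 0.0641), and the call was lost without WT 4 or any transgenic library but 5xFAD 4 and Card9-/-5xFAD 4 (adjusted p up to 0.123). The other 2 called, named after their values were seen, were Bsg, the chaperone of monocarboxylate transporters, which rose, and the carrier Slc16a6, which fell. In the pentose phosphate pathway, which branches off at glucose 6-phosphate, 1 of 10 tested genes was called, Pgls, which rose by 0.67 (SE 0.18, adjusted p = 0.0388) and was not called without the filter on low counts (adjusted p = 0.163). That share lies below the 11.3% of all tested genes.

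With 16 libraries and no added covariate, edgeR called no member for the Card9 genotype. In Card9-/- against WT, 0 of 33 members and 0% of all tested genes passed in edgeR, and 0 members had an unadjusted p under 0.05, where 4.11% of all did. In Card9-/-5xFAD against 5xFAD, 0 of 33 and again 0% of all passed, and 1 member, Pfkfb2, had an unadjusted p under 0.05, where 2.52% of all did. DESeq2 called 0 members in both, and 5 and 2 of all genes. Averaged over transgene status, 0 members were called, where 0.0276% of all genes were, and 2 had an unadjusted p under 0.05, where 9.12% of all did: Pfkfb2 at 0.79 (adjusted p = 0.496) and Ldhb at -0.55 (adjusted p = 0.52). With 1 surrogate variable in the fit, Pfkfb2 was called in the averaged comparison, at 0.78 (adjusted p = 0.089), as were 787 of all genes. On 12 libraries, again 0 members were called in any of these, where 0.0209% of all genes were called for the averaged deletion. The members' log2 fold changes ran from -0.60 to 0.74 in Card9-/- against WT and from -0.62 to 0.89 in Card9-/-5xFAD against 5xFAD.

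The response of the members to the transgenes was not shown to differ between Card9 genotypes. In the interaction test, 0 of 33 members and 0% of all tested genes passed in edgeR, 0 members had an unadjusted p under 0.05, where 0.537% of all did, and DESeq2 called 0 members and 1 of all genes. The interaction of Egln3 was -0.42 (SE 0.89, adjusted p = 1), that of Pfkp 0.25 (SE 0.44, adjusted p = 1) and that of Tpi1 -0.14 (SE 0.65, adjusted p = 1). These SEs are larger than those of the averaged transgene effects of the same genes, and a p that misses the threshold does not show that the genotypes responded alike.

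**Figure D5:**
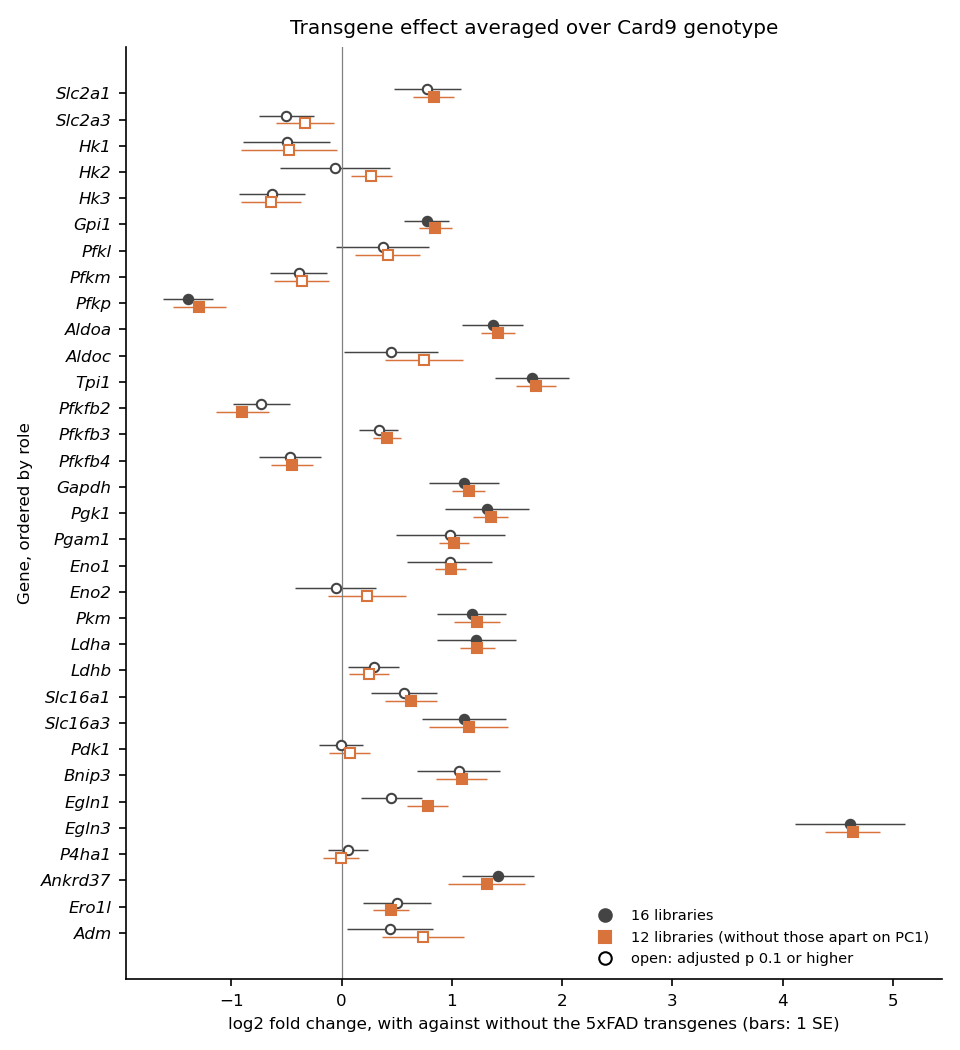
Log2 fold change with against without the transgenes, averaged over Card9 genotype, for the 33 tested members ordered by role, with bars of 1 SE. Dark circles use 16 libraries and orange squares the 12 without those that stand apart, filled where the adjusted p is under 0.1; 11 circles and 21 squares are filled, and the positions of most genes differ little between the fits while most bars are shorter with 12.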

How the data were processed

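RNA was sequenced from CD11b+ brain cells in 16 libraries. The authors deposited raw read counts per gene, made per the labels and the study's methods with HISAT2, SAMtools and HTSeq on mm10 (versions and strand setting not given in the sources used here). Groups came from the labels. The labels do not tie each library to a separate animal, so p-values measure the spread between libraries, which may be technical.

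The counts were scaled with TMM and tested with edgeR 4.0.16 in R 4.3.3 (quasi-likelihood, all 16 libraries, 1 coefficient per genotype). The filter on low counts was filterByExpr (min.count 10), and 14513 genes passed. P-values were adjusted by Benjamini-Hochberg over these, with a threshold of 0.1. CPM use TMM library sizes, and levels per length divide by the union of annotated exons. That union can be longer than the transcript expressed, so shares and orders of genes depend on it. The fit was tested on simulated data. Alternatives used DESeq2 1.42.0, sva 3.50.0, other filters and left-out libraries.

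The members and lists were chosen with earlier results of these data known. All 34 members are accounted for: those called in any comparison get library values and full statistics, and the others fold changes or ranges. Some of the others also get means, shares or library values. Up to 10 called genes per comparison from the other pathway lists, Hif1a and Card9 are also named. Promoters are RefSeq sequences on GRCm38.p6. A chi-square comparison of each of 24 same-group pairs gave at least 6.28 per degree of freedom, so no pair looked like 1 library sequenced again. It cannot show that libraries came from separate mice. Each library was counted as 1 replicate.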

Additional observations from a re-analysis of the deposited data

Results flagged for a closer look

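In 19 of 132 sets of 4 libraries, 1 library lay far from the other 3 by Dixon's test, where chance alone gives about 1 in 20. In Card9-/- 4, Adm (1.96 CPM) was high and Pdk1 (205 CPM) was high, while Eno1 (192 CPM), Ero1l (5.23 CPM), Pgam1 (28.1 CPM), Pgk1 (21.6 CPM) and Pkm (196 CPM) were low. In Card9-/-5xFAD 4, Bnip3 (18 CPM), Eno1 (253 CPM), Eno2 (0.40 CPM), Ldha (213 CPM), Pgam1 (10 CPM) and Tpi1 (127 CPM) were low. In WT 1, Gapdh (24.5 CPM), Pfkl (35.7 CPM) and Pgam1 (8.80 CPM) were low, and in 5xFAD 1 Gpi1 (136 CPM) was low. The other 2 were Pdk1 in Card9-/-5xFAD 3 (87.9 CPM), which was low, and Pfkp in WT 2 (14.9 CPM), which was high. Of the 19, 17 fell in the 4 libraries that stand apart on the first principal component.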

How the results depend on the processing

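Egln3 kept its call in every fit that left out 1 library, and so did Pfkp in 5xFAD against WT and averaged. Leaving out 1 library gave 2 to 5 called members (164 to 386 of all genes) in 5xFAD against WT, 1 to 4 (120 to 720) in Card9-/-5xFAD against Card9-/-, and 7 to 16 (955 to 3053) averaged over Card9 genotype. It gave 0 to 8 genes for the averaged Card9 deletion, 0 to 1 in each other Card9 comparison, and 0 members in all 4. The cause of the following changes was not tested.

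In 5xFAD against WT, the called members and all genes were 1 without the low-count filter (Egln3), 2 and 171 with at least 10 counts in every library, 565 genes with DESeq2, 7 and 669 with DESeq2 on the compared groups, 2 at an adjusted p under 0.05, 18 and 2068 with 1 surrogate variable, 16 and 1071 with a slope on exon length, and 13 and 1144 on 12 libraries. In Card9-/-5xFAD against Card9-/-, they were 1 and 185, 1 and 148, 7 and 812, 4 and 433, 1 and 162, 14 and 2567, 13 and 947, and 17 and 2394 in the same order, and 1 and 96 with edgeR on the compared groups. Averaged over Card9 genotype, 1070 genes were called without the filter, 920 at 0.05, 23 members and 5727 genes with the surrogate variable, 19 and 3783 with the slope, and 21 and 4948 on 12 libraries.

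For the Card9 deletion, Card9-/- against WT gave 2 genes without the filter, 5 and 8 with the DESeq2 fits, 9 with the surrogate variable, 1 with early response genes as a covariate and 3 with the slope. Card9-/-5xFAD against 5xFAD gave 1, 2, 9 and, with the surrogate variable, 1, and the interaction 1 with DESeq2. The averaged deletion gave 2 with DESeq2 size factors and at 0.05, 0 with 10 counts in every library, 106 with DESeq2, 787 with the surrogate variable and 1 member (Pfkfb2), 1 with the early response covariate and 7 with the slope.

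Small averaged estimates changed sign. Pdk1 was at 0.0557 with DESeq2 size factors, 0.0302 without the filter, 0.11 with 10 counts in every library, 0.0553 with DESeq2, 0.0026 with the surrogate variable and 0.0719 on 12 libraries. Hk2 was at 0.0678 with 10 counts in every library and 0.27 on 12 libraries. Eno2 was at 0.0472 with DESeq2, 0.0024 with the surrogate variable, 0.0647 with the early response covariate, 0.23 on 12 libraries and 0.0304 with the slope, and P4ha1 was at -0.0061 on 12 libraries. Leaving out 1 library moved Hk2 between -0.55 and 0.57, Pdk1 between -0.0635 and 0.11, Eno2 between -0.21 and 0.0876, and P4ha1 between -0.0171 and 0.17.

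Replicate numbers are shared between the groups, but only 15 of 24 same-numbered pairs of libraries correlated over 0.1 in their deviations and 8 were negative (-0.71 to 0.734), so the numbers were not taken to pair them. With the replicate number as a block, 4, 3 and 11 members and 306, 340 and 1871 of all genes were called for the transgenes in mice with Card9, in mice without it and averaged, respectively, Tpi1 was called in Card9-/-5xFAD against Card9-/- (1.57, adjusted p = 0.0811) and Bnip3 in the averaged one (1.03, adjusted p = 0.065), Slc16a3 was not (1.05, adjusted p = 0.106), and Hk2 was at 0.0414. The shallowest library had 2970148 reads, and Adm, Eno2 and Ddit4 were too low for a firm statement.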
